A study of Mus musculus with 18 samples.

Results

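Serum amyloid A, lipocalin 2 and complement genes are switched on together in inflamed tissue, and their levels were followed here from mouse fibroblasts to liver-like cells and intestinal organoids. The group holds 7 genes, namely Saa1, Saa2, Saa3, Saa4, Lcn2, C3 and Cfb, out of 28090 gene names on the array. Its members were the 10 probes, of 41174 gene probes, whose printed gene name is one of these. The genes were proposed with values of these same arrays in view, so that their levels and differences are given as a description, without p-values.

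Serum amyloid A proteins are small apolipoproteins that hepatocytes release in the acute-phase response to infection or injury. Saa1 and Saa2 are the main acute-phase forms, Saa3 is made largely outside the liver, including by gut epithelium and macrophages, and Saa4 is the constitutive form. Lcn2 encodes lipocalin 2, which withholds iron from bacteria by binding their siderophores. C3 is the protein on which all routes of complement activation converge, and Cfb encodes factor B, which supplies the protease of the alternative pathway convertase. In liver and gut epithelium these genes are known to respond to interleukin 6 through STAT3, and to interleukin 1 and TNF through NF-κB and C/EBP factors.

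Levels came from 18 one-colour microarrays in 6 groups of 3 arrays, all of C57BL/6 mice. The iISC group was budding organoids from induced intestinal stem cells, and the crypt group was budding organoids from the intestinal crypts of adults. The iFIPC group was a mixture of organoids, spherical ones and budding ones, whose source was induced fetal intestinal progenitor cells, and the FI group was the same mixture with fetal intestine as its source. iHep cells are hepatocyte-like cells converted from fibroblasts, and MEFs are the mouse embryonic fibroblasts. The conversion factors are not named in the labels, the 3 iHep arrays carry differing codes that the labels do not explain, and nothing says whether samples of a group came from separate animals or cultures. The spread between them may therefore be technical, and the number of arrays limits the precision. MEF arrays 2 and 3 differed about as little as the noise of single spots and were counted as 1 sample, which left 17 samples and n = 2 for MEFs.

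Levels are log2 units relative to the 75th percentile of the gene probes on the same array, so that 0 is a fairly bright probe and each unit is a doubling. A probe's levels can be compared between samples, but not with those of another probe. A signal that the scanner software did not mark as well above background is called not above background, and a gene at that mark in a whole group gives only a lower bound on a difference. For such a bound the dim group was set, on each array, at the lowest signal among probes well above background, or at its own signal where that was higher.

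Of the 10 probes, 3 are shown because the results differ between the pair for Saa1 and because the Saa1 and Saa3 probes share accessions in the array annotation. The first Saa1 probe lies at chr7:53996167-53996639 on the minus strand of mm9 and spans 473 bases there, more than its own length of 60. The second lies at chr7:53996070-53996129 and the Saa3 probe at chr7:53968031-53968090, on the same strand. Each is given whole, 5′ to 3′, with no part in capitals.
Saa1, first probe: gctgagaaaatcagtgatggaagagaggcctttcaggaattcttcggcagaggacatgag
Saa1, second probe: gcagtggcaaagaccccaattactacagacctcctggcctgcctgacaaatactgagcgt
Saa3: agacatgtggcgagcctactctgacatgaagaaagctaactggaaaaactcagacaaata
The Saa2 probe lies at chr7:54009535-54009594 on the plus strand. Lcn2 was read at chr2:32241037-32241281, C3 at chr17:57343416-57343475 and, by a second probe, at chr17:57364538-57364695, and Cfb at chr17:34993502-34993858, all on the minus strand. An annotation of that build was not used here, so exons are not named.

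RefSeq promoters of 5 members follow, since several members varied together and the letters of known acute-phase motifs can be looked up in them. Each is the 250 bases before the gene's start, on GRCm38.p6, at chr7:46742981-46743230 on the minus strand for Saa1, chr7:46751583-46751832 on the plus strand for Saa2, chr7:46715677-46715926 on the minus strand for Saa3, chr2:32387740-32387989 on the minus strand for Lcn2 and chr17:57228137-57228386 on the minus strand for C3. Capitals mark matches to TTGCNNAA, letters of the C/EBP type, and to GGG and CC with any 5 bases between them, letters of the NF-κB type, on either strand.
Saa1 promoter: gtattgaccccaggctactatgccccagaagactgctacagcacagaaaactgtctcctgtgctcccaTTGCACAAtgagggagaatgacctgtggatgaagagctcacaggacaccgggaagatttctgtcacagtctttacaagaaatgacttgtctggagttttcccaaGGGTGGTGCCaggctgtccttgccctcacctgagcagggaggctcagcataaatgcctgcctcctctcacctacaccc
Saa2 promoter: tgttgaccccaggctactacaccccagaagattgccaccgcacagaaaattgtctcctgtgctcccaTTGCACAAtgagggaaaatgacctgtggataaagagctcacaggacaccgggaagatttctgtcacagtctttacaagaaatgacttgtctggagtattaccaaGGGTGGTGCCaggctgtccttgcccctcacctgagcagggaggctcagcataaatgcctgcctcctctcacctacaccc
Saa3 promoter: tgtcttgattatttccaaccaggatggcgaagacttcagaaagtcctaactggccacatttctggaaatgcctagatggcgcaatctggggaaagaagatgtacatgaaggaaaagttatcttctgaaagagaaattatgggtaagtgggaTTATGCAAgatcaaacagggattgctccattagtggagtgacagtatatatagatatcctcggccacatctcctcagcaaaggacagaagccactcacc
Lcn2 promoter: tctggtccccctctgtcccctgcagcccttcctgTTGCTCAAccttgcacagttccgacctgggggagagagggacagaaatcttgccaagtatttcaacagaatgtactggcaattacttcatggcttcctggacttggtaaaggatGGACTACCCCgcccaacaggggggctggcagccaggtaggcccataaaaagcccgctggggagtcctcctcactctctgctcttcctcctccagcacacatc
C3 promoter: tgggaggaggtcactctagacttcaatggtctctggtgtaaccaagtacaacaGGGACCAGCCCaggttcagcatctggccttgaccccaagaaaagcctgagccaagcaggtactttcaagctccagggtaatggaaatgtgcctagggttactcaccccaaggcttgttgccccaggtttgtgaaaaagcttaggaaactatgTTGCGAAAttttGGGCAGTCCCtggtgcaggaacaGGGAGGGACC
Saa1 and Saa2 shared 238 of 251 aligned columns, or 94.8%, and hold both motifs at nearly the same place, at -182 and -78 from the start in Saa1 and at -183 and -79 in Saa2. The other pairs of promoters, Saa4 included, were 44.7% to 53.9% identical. Saa3 holds the C/EBP-type letters at -99 and no match of the NF-κB type in this window. Lcn2 holds one match of each kind, at -216 and -102. C3 holds the C/EBP-type letters at -45 and the NF-κB-type letters at -197, -33 and -10, with a further match on the opposite strand at -196 that overlaps the one at -197. Saa4, whose promoter is not shown, holds the C/EBP-type letters at -245 and -52 and the NF-κB-type letters at -210. Both kinds of letters thus also precede a member that was not above background in any organoid or MEF sample. TTCNNNGAA, letters of the STAT type, occurred in none of these promoters, Saa4 included. Among 32851 promoter windows of the same source and length, 9.56% hold TTGCNNAA, 45.8% hold the NF-κB-type letters and 7.02% hold TTCNNNGAA. The motifs were picked with the sequences and levels already seen, and a match is a run of letters, not a bound site.

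Across the 18 arrays the 75th percentile ranged from 714.07 to 1484.4 intensity units, and 56.15% to 68.67% of gene probes were well above background. MEFs and iHep cells were read on another scanner, with another version of the extraction software, than the organoids, and 10 spike-in probes were brighter there by 0.32 to 1.2 log2 units. Array set and cell type therefore cannot be told apart in any comparison of organoids with iHep cells or MEFs. All 8 epithelial markers were above background in every organoid and iHep sample. All 10 intestinal markers were above background in every organoid, and 8 of 9 hepatocyte markers in every iHep sample, with Tdo2 in none. These marks are not exclusive. In all samples of a group, 5 or 6 of 9 hepatocyte markers were above background in organoids. So were 5 of 10 intestinal markers in iHep cells and 5 of 8 epithelial markers in MEFs. In a bulk sample, fewer cells of a type and less RNA per cell cannot be told apart.

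Saa1 on its first probe and Saa2 were bright in both kinds of induced organoid and in iHep cells, and dim in crypt organoids, in 2 of 3 FI organoids and in MEFs. Saa3 divided the organoids in the same way, but Saa3, Lcn2 and C3 were brightest by far in iHep cells. Cfb differed from all of them, at one high level in every organoid whatever its source and dim in MEFs alone.

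**Figure D1:**
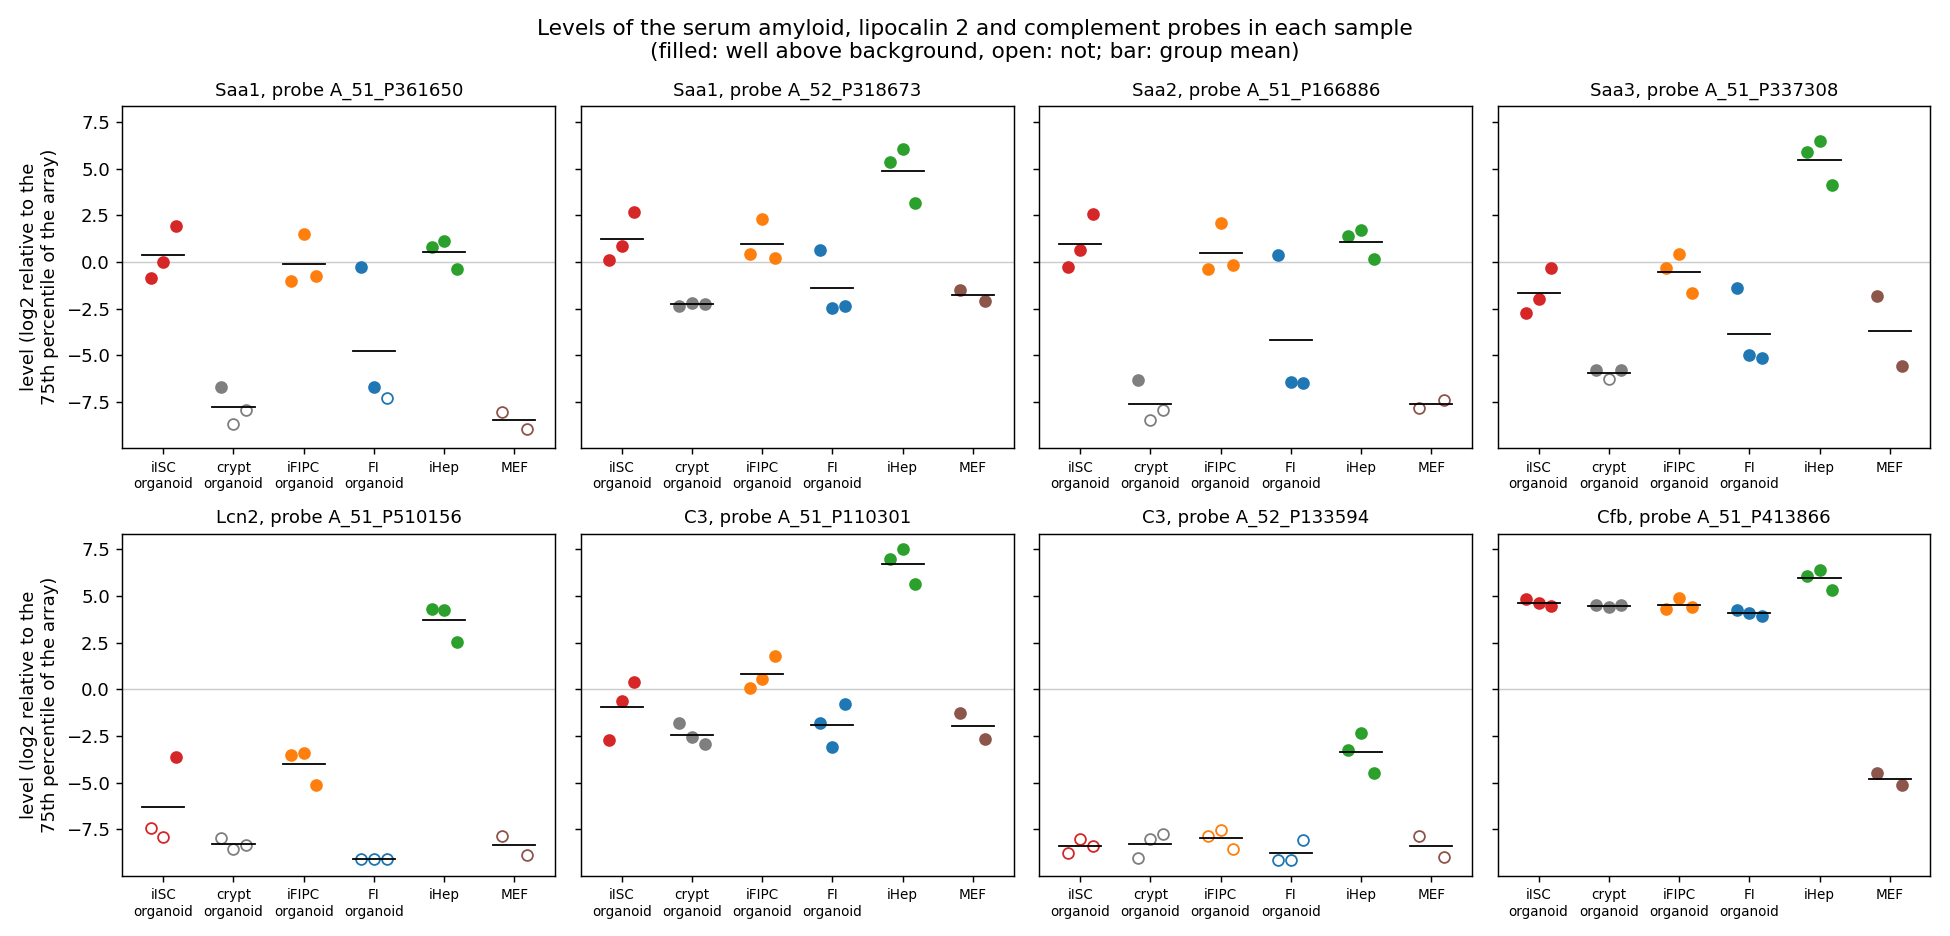
Level of 8 member probes in each sample, in log2 units relative to the array's 75th percentile, with 1 panel per probe, 1 point per sample and a bar at each group mean; open points are not above background, and the second MEF point is the mean of arrays 2 and 3. Saa2 in FI organoid 1 stands at 0.37, among the induced organoids, while the other 2 FI organoids stand at -6.45 and -6.49.

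Saa2 had levels of -0.26, 0.63 and 2.57 in iISC organoids, against -6.31, -8.50 and -7.96 in crypt organoids, where only the first was above background. In iFIPC organoids it was at -0.39, 2.06 and -0.17, against 0.37, -6.45 and -6.49 in FI organoids. It was at 1.38, 1.71 and 0.15 in iHep cells, against -7.84 and -7.38 in MEFs, both of these not above background. Every iISC sample thus lay above every crypt sample, while FI organoid 1 lay inside the range of the iFIPC organoids. The difference of means between iISC and crypt organoids was 8.57 ± 1.67 log2 units (SE, n = 3 each), or 7.77 without iISC organoid 3, the brightest. Between iFIPC and FI organoids it was 4.69 ± 1.68 (SE, n = 3 each), and 6.97 without FI organoid 1. Relative to MEFs, Saa2 was higher by at least 162-fold in iHep cells, at least 151-fold in iISC organoids and at least 108-fold in iFIPC organoids.

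Among the 3 groups where Saa2 was bright, the means were close. iHep cells averaged 1.08 ± 0.82, iISC organoids 0.98 ± 1.45 and iFIPC organoids 0.5 ± 1.35 (SD, n = 3 each), with overlapping ranges. iISC minus iFIPC was 0.48 ± 1.68 log2 units (SE), a direction that turned without iISC organoid 3, at -0.32, and within the slide that holds all iISC organoids and 1 iFIPC organoid, at -1.08. iFIPC organoids minus iHep cells was -0.58 ± 1.49 (SE, n = 3 each).

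The first Saa1 probe followed Saa2 almost sample for sample. Its levels were -0.87, -0.02 and 1.95 in iISC organoids, against -6.73, -8.69 and -7.93 in crypt organoids, of which the first alone was above background. They were -1, 1.5 and -0.77 in iFIPC organoids, against -0.28, -6.72 and -7.30 in FI organoids, the last not above background. The root mean square difference between the centred levels of this probe and Saa2 over 17 samples was 0.26 log2 units, the smallest among 15644 genes compared with it. Whether the first Saa1 probe and the Saa2 probe also read each other's RNA was not tested. Their likeness may therefore not be that of separate genes. iISC minus crypt was 8.13 ± 1.64 log2 units (SE, n = 3 each). iFIPC minus FI was 4.68 ± 1.65 (SE), and 6.92 without FI organoid 1. Levels in iHep cells were 0.81, 1.12 and -0.36, at least 110-fold above MEFs at -8.04 and -8.95, neither of these above background.

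The second Saa1 probe was above background in all 17 samples and gave smaller differences among organoids. Its levels were 0.09, 0.87 and 2.66 in iISC organoids, against -2.34, -2.19 and -2.26 in crypt organoids. They were 0.41, 2.28 and 0.22 in iFIPC organoids, against 0.65, -2.48 and -2.34 in FI organoids. FI organoid 1 again stood with the induced organoids. iISC minus crypt was 3.47 ± 0.91 log2 units (SE, n = 3 each), and iFIPC minus FI was 2.36 ± 0.92, or 3.38 without FI organoid 1. In iHep cells this probe stood much higher, at 5.36, 6.03 and 3.16, against -1.49 and -2.11 in MEFs, a difference of 6.65 ± 1.05 (SE).

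Both Saa1 probes put iISC above crypt organoids and iFIPC above FI organoids by their means, but they disagreed on iHep cells. On the first probe iFIPC organoids minus iHep cells was -0.61 ± 1.47 log2 units (SE, n = 3 each), with overlapping ranges. On the second it was -3.88 ± 0.94 (SE), with every iHep sample above every organoid. The second probe minus the first ranged from 0.72 to 0.96 in iISC organoids and from 0.78 to 1.41 in iFIPC organoids, against 3.52 to 4.92 in iHep cells. It was also wide where the first probe was dim, at 4.39 to 6.5 in crypt organoids, 4.24 and 4.96 in FI organoids 2 and 3, and 6.55 to 6.85 in MEFs, and was 0.93 in FI organoid 1. The annotation of the second Saa1 probe lists an accession that the Saa3 probe also carries, and the Saa3 probe lists the RefSeq accession of Saa1. Whether the second Saa1 probe also read Saa3 RNA was not tested, and Saa1 and Saa3 are uncertain in that respect.

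Saa3 had levels of -2.73, -2.01 and -0.31 in iISC organoids, against -5.80, -6.26 and -5.79 in crypt organoids, the second of which was not above background. It was at -0.32, 0.43 and -1.67 in iFIPC organoids, against -1.41, -5.01 and -5.13 in FI organoids. In iHep cells it was at 5.88, 6.47 and 4.10, against -1.82 in MEF 1 and -5.60 in MEF 2 and 3. The iHep samples stood above all others, and the organoids split as for Saa2, with FI organoid 1 close to the induced organoids. iISC minus crypt was 4.27 ± 0.99 log2 units (SE, n = 3 each), and iFIPC minus FI was 3.33 ± 0.99, or 4.55 without FI organoid 1. iHep minus MEF was 9.19 ± 1.26 (SE), from 7.31 against MEF 1 alone to 11.08 against MEF 2 and 3 alone. Set against MEFs, iISC organoids were 2.03 ± 1.26 log2 units higher (SE), a value that depends on the MEF sample: 0.14 against MEF 1 and 3.91 against MEF 2 and 3. iFIPC organoids minus iHep cells was -6 ± 1.13 (SE, n = 3 each).

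Saa4 was read by a pair of probes, both above background in iHep 2 alone, at -3.39 and -4.29. No organoid and no MEF sample had either probe above background, so its differences between groups are not given.

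Lcn2 was above background in all iFIPC organoids, in 1 of 3 iISC organoids and in all iHep cells. Its levels were -3.52, -3.39 and -5.13 in iFIPC organoids, and not above background in any FI organoid, which put it at least 7.87-fold higher in iFIPC organoids. In iISC organoids it was at -7.42, -7.94 and -3.61, the last above background, and no crypt organoid reached that mark. The iISC organoid with Lcn2 above background is the one that was also brightest for Saa1, Saa2, Saa3 and C3. iISC minus iFIPC was -2.31 ± 0.95 log2 units (SE, n = 3 each), with 2 of the 3 iISC organoids not above background.

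iHep cells had Lcn2 at 4.33, 4.26 and 2.54, at least 1000-fold above MEFs, where it was not above background. iFIPC organoids stood at least 4.75-fold above MEFs, but with normexp background correction, another way to remove background, they were 0.7 ± 0.45 log2 units above MEFs (SE) and Lcn2 did not pass the call rule given with the counts of members. Even so, iFIPC organoids minus iHep cells was -7.72 ± 0.91 log2 units (SE, n = 3 each), and the ranges were far apart.

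C3 was above background in all samples on its first probe, which is spotted 10 times. Its levels were -2.72, -0.61 and 0.42 in iISC organoids, against -1.81, -2.57 and -2.93 in crypt organoids. They were 0.06, 0.57 and 1.77 in iFIPC organoids, against -1.82, -3.08 and -0.80 in FI organoids. iISC and crypt organoids overlapped, since iISC organoid 1 was below crypt organoid 1, while every iFIPC organoid was above every FI organoid. iFIPC minus FI was 2.7 ± 0.83 log2 units (SE, n = 3 each), and 2.74 without FI organoid 1, which did not stand apart here. iISC minus crypt was 1.47 ± 0.82 (SE), or 0.77 without iISC organoid 3, and iISC minus iFIPC was -1.77 ± 0.82.

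In iHep cells C3 was at 7.01, 7.51 and 5.63, against -1.27 and -2.68 in MEFs, a difference of 8.69 ± 0.91 log2 units (SE). iFIPC organoids minus iHep cells was -5.91 ± 0.82 (SE, n = 3 each). The second C3 probe was above background in iHep cells only, at -3.27, -2.34 and -4.46, at least 7.47-fold above MEFs, and iFIPC organoids were at least 9.23-fold lower than iHep cells on it. It bears on no comparison among organoids.

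Cfb was the one member at a high and even level in organoids. It was at 4.84, 4.64 and 4.47 in iISC organoids, against 4.50, 4.44 and 4.52 in crypt organoids. It was at 4.31, 4.87 and 4.40 in iFIPC organoids, against 4.28, 4.07 and 3.95 in FI organoids. iISC minus crypt was 0.16 ± 0.16 log2 units (SE, n = 3 each), with overlapping ranges, and iFIPC minus FI was 0.42 ± 0.16, with FI organoids just below the others.

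Both iHep cells and organoids had far more Cfb than MEFs. iHep cells were at 6.09, 6.41 and 5.33, against -4.48 and -5.15 in MEFs, a difference of 10.76 ± 0.28 log2 units (SE). iISC organoids were 9.47 ± 0.28 and iFIPC organoids 9.34 ± 0.28 log2 units above MEFs (SE). iFIPC organoids minus iHep cells was -1.42 ± 0.25 (SE, n = 3 each), without overlap.

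The order of the group means differed between members. From highest to lowest mean, Saa2 and the first Saa1 probe ran iHep, iISC, iFIPC, FI, crypt and MEF, with each neighbouring pair overlapping. Saa3 ran iHep, iFIPC, iISC, MEF, FI and crypt, with gaps only below iHep cells and above crypt organoids. C3 ran iHep, iFIPC, iISC, FI, MEF and crypt, with a gap only below iHep cells. Cfb ran iHep, iISC, iFIPC, crypt, FI and MEF, with overlaps only among iISC, iFIPC and crypt organoids.

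**Figure D2:**
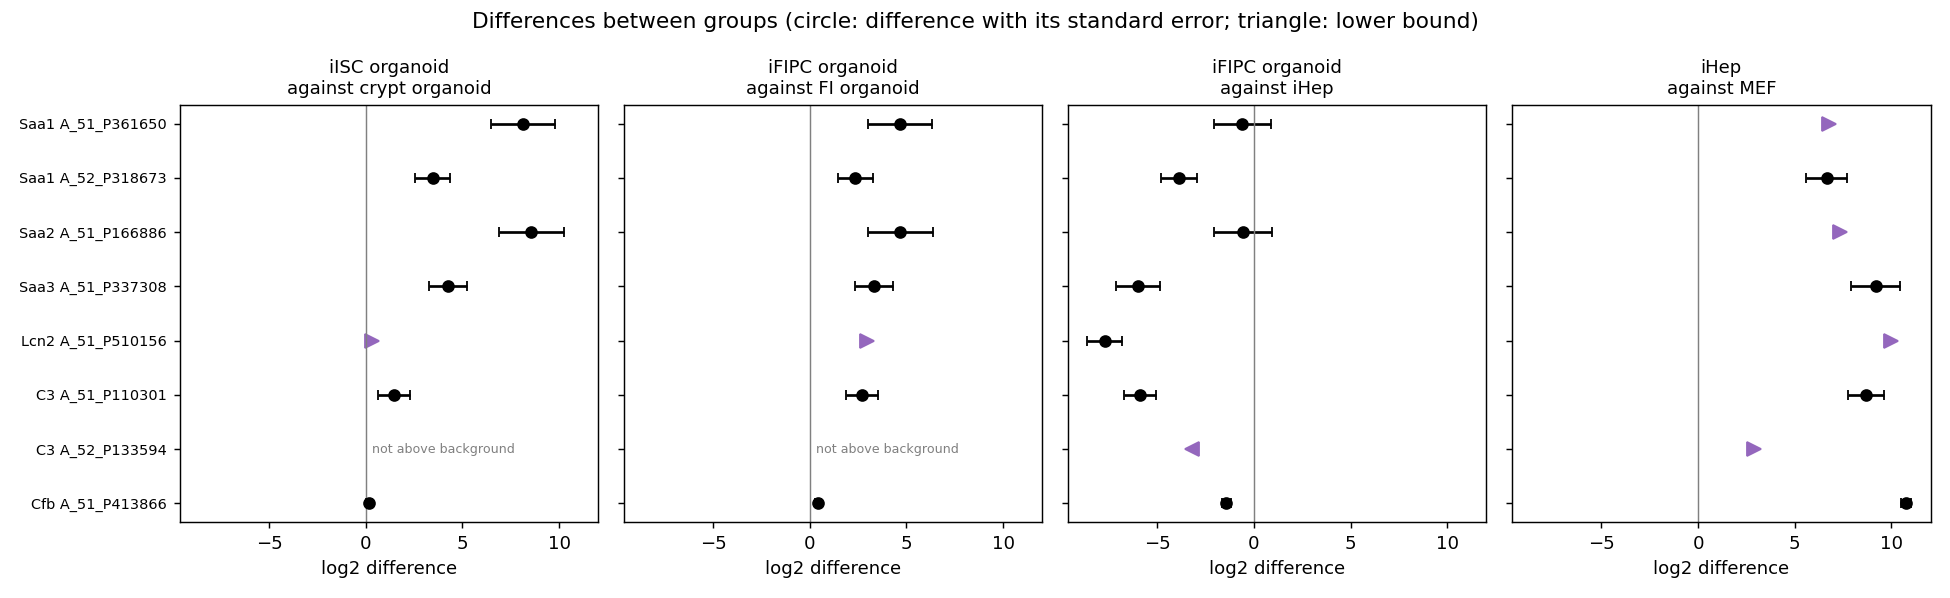
Difference between group means for each member probe and comparison, in log2 units, with bars of 1 SE; circles are the first-named group minus the second, and triangles are lower bounds that point away from 0. Cfb lies near 0 among organoids, at 0.16 for iISC minus crypt, while Saa2 lies at 8.57.

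Members past the call rule, an adjusted p under 0.05 in limma and at least 1 log2 unit, are counted here against all genes tested, and since the members were chosen on these arrays nothing is read from the counts. A member was tested if all arrays of either compared group had it above background, and Saa1 is counted by its second probe. In iISC against crypt organoids 2 of 5 members tested passed, Saa2 and Saa3, both higher. Of all genes 2.95% passed there and 1.71% were higher. Neither Saa2 nor Saa3 was above background in every crypt organoid, so both were tested through iISC organoids alone. With the mean of all probes of a gene, Saa1 passed between these groups too. In iFIPC against FI organoids 3 of 6 passed, Saa3, Lcn2 and C3, all higher, where 10% of all genes passed and 4.99% were higher. Lcn2 was above background in no FI organoid and was tested through iFIPC organoids alone, so its direction was all but fixed. Without FI organoid 1 the members that passed there were Saa1, Saa2, Saa3 and Lcn2, and Lcn2 alone passed without FI organoid 2, iFIPC organoid 1 or iFIPC organoid 2. Neither Saa2 nor Saa3 passed between iISC and crypt organoids without iISC organoid 2 or 3 or without crypt organoid 2 or 3. No member passed in crypt against FI organoids (0 of 5, 8.12% of all genes) or in iISC against iFIPC organoids (0 of 6, 7.35%), though Lcn2 passed between iISC and iFIPC organoids without iISC organoid 3.

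Against MEFs the members passed in one direction. Saa2 and Lcn2 were above background in no MEF sample, so they were tested through the other group alone. Their direction was thereby all but fixed, and the counts below carry that limit. All 6 tested members were higher in iHep cells, where 26.9% of all genes passed and 12.2% were higher. All 6 were also higher in iFIPC organoids than in MEFs, where 42.1% passed and 19.6% were higher. In iISC organoids against MEFs 3 of 5 were higher, Saa1, Saa2 and Cfb, where 47.3% passed and 22.4% were higher, and Saa1 did not pass there without iISC organoid 3, without MEF 2 and 3 or without MEF 1, where Saa3 passed in its place. With MEF 1 as the only MEF sample, 3 members passed in iFIPC organoids, Saa2, Lcn2 and Cfb. Without iFIPC organoid 2 the members that passed there were Saa2, Lcn2, C3 and Cfb. In iFIPC organoids against iHep cells 5 of 6 were lower, the exception being Saa2, where 33.8% passed and 17.3% were lower. Saa1 passed there by its second probe. Its first probe differed by -0.61 ± 1.47 log2 units (SE), with overlapping ranges. With the mean of all probes of a gene 4 members passed there, without Saa1.

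Without any threshold, the samples of the compared groups did not overlap for 3 of 5 members in iISC against crypt organoids (24.4% of all genes tested), 3 of 6 in iFIPC against FI organoids (46.3%), 2 of 5 in crypt against FI organoids (34.3%) and 0 of 6 in iISC against iFIPC organoids (36.9%). They did not overlap for 6 of 6 in iHep cells against MEFs (61.9%), 3 of 5 in iISC organoids against MEFs (78.6%), 6 of 6 in iFIPC organoids against MEFs (78%) and 5 of 6 in iFIPC organoids against iHep cells (64.1%). Members tested through a single group carry the same limit here, and Saa1 is again counted by its second probe. Comparisons that share a group of samples are not independent of each other.

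Slides held unequal mixtures of groups. No slide held both iISC and crypt organoids, or both iFIPC and FI organoids. With slide as a term in the fit, no member passed in either comparison. Saa1 on its second probe then differed by 1.46 ± 1.7, Saa2 by 6.87 ± 3.25 and Saa3 by 2.92 ± 1.97 log2 units (SE) between iISC and crypt organoids, and C3 by 3.76 ± 1.68 between iFIPC and FI organoids. No gene of the 8 related lists passed in these comparisons with that term. Normexp background correction brought dim probes closer to the rest: Saa2 then differed by 5.01 and Saa3 by 2.34 between iISC and crypt organoids, and Lcn2 by 1.19 between iFIPC and FI organoids. Against MEFs, Saa2 then differed by 4.75 log2 units in iHep cells, 4.68 in iISC organoids and 4.24 in iFIPC organoids, the first Saa1 probe by 4.35, Lcn2 by 7.41 and the second C3 probe by 1.28 in iHep cells. The second C3 probe was then at -1.62 in iFIPC organoids minus iHep cells. All these differences of Lcn2, of the second C3 probe and of Saa1 and Saa2 against MEFs are smaller than the bounds given for them, which hold for the processed signal alone. Within the slide that held MEF 1 and all iHep cells, iHep minus MEF was 7.31 for Saa3, 7.98 for C3 and 10.43 for Cfb. Within the slide that held the iISC organoids and iFIPC organoid 2, iISC minus iFIPC was -2.12 for Saa3, -2.94 for Lcn2 and -1.54 for C3.

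Single samples stood apart within their groups. FI organoid 1 was above the other 2 FI organoids for Saa1, Saa2 and Saa3 but not for Lcn2, which was not above background in any of them, and iISC organoid 3 was the brightest of its group for Saa1, Saa2, Saa3, Lcn2 and C3. The summed level of 8 fibroblast markers, as log2, was 0.27, -3.14 and -2.92 in FI organoids 1 to 3. It was 0.70, 1.97 and -1.51 in iFIPC organoids, -1.50, -1.30 and -1.02 in iISC organoids and -2.65, -3.10 and -2.82 in crypt organoids. iHep cells had 7.23, 7.34 and 5.72, against 9.79 and 9.67 in MEFs. The FI organoid and the iISC organoid with the most serum amyloid thus also had the highest fibroblast sum of their group, and both induced organoid groups had higher sums than crypt organoids. The sums of the induced groups rest on different markers, however. Pdgfrb, at -1.86, -1.70 and -1.46, made up most of the sum in iISC organoids, and was at -3.87, -3.44 and -4.64 in iFIPC organoids. Each of the 8 was above background in at least 1 iFIPC organoid, and 5 of them in all 3. Pdgfra, Dcn and Lum were not above background in any FI organoid, Col1a1, Thy1, Pdgfra, Dcn and Lum in no iISC organoid, and these and Col3a1 in no crypt organoid. The part of such cells in the results was not tested.

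**Figure D3:**
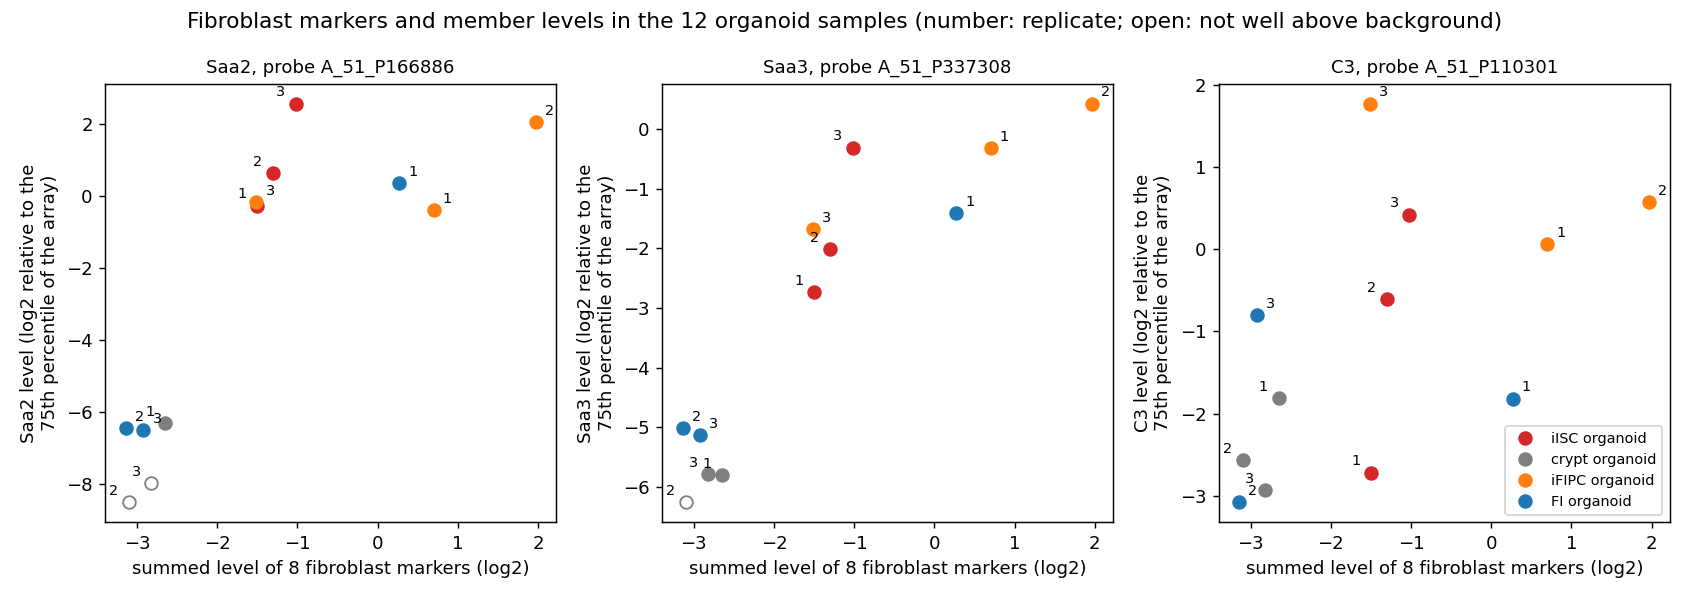
Levels of Saa2, Saa3 and C3 against the summed level of 8 fibroblast markers in the 12 organoid samples, both in log2 units, coloured by group and numbered by replicate; open points are not above background. FI organoid 1, with a fibroblast sum of 0.27 and Saa2 at 0.37, lies with the iFIPC organoids.

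Immune cells were looked at as well, since macrophages are a known source of Saa3. Of 11 macrophage and neutrophil markers, Emr1 and Elane were not above background in any organoid or iHep sample. In all samples of a group, 4 of the 11 were above background in iISC, 7 in crypt, 5 in iFIPC and 6 in FI organoids, 4 in iHep cells and 7 in MEFs. Ptprc, which marks all white blood cells, was likewise not above background in any iISC, crypt or FI organoid or any iHep sample, but it was in at least 1 iFIPC organoid. The summed level of the list, as log2, ran from 7.01 to 7.29 in iISC organoids, from 7.21 to 7.31 in crypt organoids, from 7.07 to 7.25 in iFIPC organoids, from 5.75 to 7.10 in FI organoids, from 2.79 to 4.06 in iHep cells and from 6.08 to 6.72 in MEFs. The list holds Lyz2 and Cd14, which these organoids also carried, and S100a8, which the antimicrobial list below holds too. Lyz2 alone was at 7.28, 7.25 and 6.97 in iISC organoids and at 7.09, 5.72 and 6.19 in FI organoids. It made up nearly the whole sum in organoids, while Cd14, at 2.61, 3.89 and 3.87, made up most of it in iHep cells. The sums therefore say little of the other markers. Among lymphocyte markers 2 to 4 of 8 were above background in all samples of a group.

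Genes that induce or sense the acute-phase response were set beside the members, from lists of ligands, receptors and signalling factors. These and the lists below were chosen with earlier results of these data known, so their counts are a description. A gene was tested if all arrays of either compared group had it above background. One that was dim in 1 group thus entered through the brighter group. In iFIPC against FI organoids 2 of 4 ligands tested were higher and none lower. Il1a, encoding interleukin 1 alpha, exceeded its FI level at least 11-fold in iFIPC organoids (limma adjusted p = 0.00314), and Tnf was 3.38 ± 0.87 log2 units higher (SE, adjusted p = 0.0222). Leaving out FI organoid 2 or 3 or iFIPC organoid 1 or 2 left 1 ligand past the threshold. Of 20 receptors 2 were higher and 1 lower. Osmr, the receptor for oncostatin M, was 5.95 ± 0.7 log2 units higher in iFIPC organoids (SE, adjusted p = 0.000971). Its FI levels were -6.44, -6.57 and -7.25, close to the lowest signal well above background on those arrays. Cd14, a coreceptor for bacterial lipopolysaccharide, was 2.57 ± 0.54 log2 units higher (SE, adjusted p = 0.0107), and Il1rap, the accessory chain of the interleukin 1 receptor, fell by 1.72 (SE 0.31, adjusted p = 0.00616). None of 24 signalling and transcription factors passed in either direction, where 10% of all genes did.

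Between iISC and crypt organoids none of 3 ligands, 19 receptors and 24 signalling factors tested passed the threshold, where 2.95% of all genes did. Between iISC and iFIPC organoids Osmr was -6.42 ± 0.7 log2 units apart (SE, adjusted p = 0.000792), lower in iISC organoids, as were Il1r1 and Tlr2, with none of 20 receptors higher. iISC organoids 1 and 2 were not above background for Osmr, at -8.49 and -7.74, so the size of that difference is uncertain. Il1a was lower in iISC organoids by at least 6.07-fold (adjusted p = 0.0138). Cebpa, a C/EBP factor, was 1.19 ± 0.2 log2 units higher in iISC organoids, and Irf1, an interferon-responsive factor, fell by 1.6 (adjusted p = 0.00644 and 0.015), the only 2 of 24 signalling factors to pass, where 7.35% of all genes did.

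iHep cells carried more of the signalling list than MEFs: 9 of 24 factors were higher and none lower, where 12.2% of all genes were called higher. Tnfaip3, Nfkbia and Bcl3, all feedback regulators of NF-κB, were 4.14 ± 0.3, 3.18 ± 0.2 and 3.16 ± 0.29 log2 units higher (SE), with adjusted p of 2.58e-07, 7.87e-08 and 2.39e-06. Ikbkg was 2.11 ± 0.17 higher (adjusted p = 7.39e-07). Il6 was 2.3 ± 0.5 log2 units higher in iHep cells (SE, adjusted p = 0.00244) and Tnf 2.72 ± 0.95 (adjusted p = 0.0344), while Ctf1 and Il11, also ligands of the interleukin 6 family, fell by 2.21 and 2.15 (adjusted p = 4.89e-05 and 3.61e-06). Among 19 receptors 4 were higher, Cd14, Il6ra, Ifngr1 and Tlr2, led by Cd14 at 4.65 ± 0.6 (SE, adjusted p = 4.38e-05), and Il11ra1 was lower.

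Set against iHep cells, iFIPC organoids had 10 of 24 signalling factors lower and none higher, where 17.3% of all genes were called lower. Cebpd, the C/EBP factor of the acute phase, differed by -3.41 ± 0.5 log2 units (SE, adjusted p = 8.67e-05) and Ikbkg by -2.09 ± 0.15 (adjusted p = 2.06e-07). Il6, not above background in iFIPC organoids, was lower there by at least 28-fold, with an adjusted p of 8.13e-08. Il1a, in contrast, was higher in iFIPC organoids, by at least 5.78-fold (adjusted p = 0.000189). Of 20 receptors 10 were lower, led by Osmr at -4.15 ± 0.62 and the shared signalling chain Il6st at -3.23 ± 0.22 (SE, adjusted p = 9.98e-05 and 1.17e-07), and Il1rn alone was higher.

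Other acute-phase plasma proteins did not all follow the members. Against MEFs, iHep cells had 16 of 20 tested higher and 1 lower, Apcs, with a median difference of 6.26 log2 units. Of all genes tested 12.2% were called higher there. Fgb, a fibrinogen chain, was at least 14300-fold higher, Apoa1 at least 8250-fold and Alb at least 2020-fold, with adjusted p of 4.82e-06, 3.92e-08 and 0.000391. The lipopolysaccharide-binding protein gene Lbp was 8.58 ± 1.59 log2 units higher (SE, adjusted p = 0.000812). Alb, Fgb, Ttr and Apoa1 stand in the hepatocyte marker list as well. None of them was above background in MEFs, so they were tested through iHep cells alone. Their direction was thereby all but fixed, and the count of 16 and the median difference carry that limit. iFIPC organoids had 13 of 18 lower than iHep cells and none higher, where 17.3% of all genes were called lower. Fgb differed by -13.38 ± 1.35 and Hp, encoding haptoglobin, by -11.97 ± 1.17 log2 units (SE, adjusted p = 3.62e-06 and 2.71e-06), in iFIPC organoids minus iHep cells. Neither was above background in iFIPC organoid 3, at -9.03 and -7.79. Both were therefore tested through iHep cells alone, and the count of 13 carries that limit too.

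Among organoids, iFIPC had 5 of 12 of these plasma protein genes higher than FI and 1 lower, and 8 higher without iFIPC organoid 3. Of all genes tested 4.99% were called higher there. Cp, encoding the copper-binding ceruloplasmin, was at -0.36, 0.41 and -2.32 in iFIPC organoids and not above background in FI organoids, which puts it higher in iFIPC organoids by at least 74.9-fold (adjusted p = 0.00707). Lrg1, a secreted leucine-rich glycoprotein, was at 1.92, 0.54 and -1.23 in iFIPC organoids, against -4.79, -5.20 and -4.96 in FI organoids, a difference of 5.4 ± 0.71 (SE, adjusted p = 0.00156). Steap4, a metalloreductase, was higher in iFIPC organoids by at least 5.62-fold (adjusted p = 0.000531), Trf and Ttr were also higher, and Apoa2 fell by 1.31 (adjusted p = 0.0167). Cp and Steap4 were above background in no FI organoid and were tested through iFIPC organoids alone, a limit on the count of 5. For Cp, Lrg1 and Steap4 no FI organoid stood apart, unlike FI organoid 1 for Saa1, Saa2 and Saa3. Between iISC and crypt organoids none of 10 was higher, and Apoa2 fell by 2.24 ± 0.31 log2 units (SE, adjusted p = 0.0059). Of all genes tested 2.95% passed there. Lbp and Lrg1 were lower in iISC than in iFIPC organoids, with differences of -6.05 ± 1.62 and -4.61 ± 0.71 log2 units (SE, adjusted p = 0.0384 and 0.00387). Lbp was at -7.84, -7.41 and -2.72 in iISC organoids, only the last above background, and that one overlapped iFIPC organoid 3 at -2.89. The size of its difference is therefore uncertain. Steap4 was also lower in iISC organoids (adjusted p = 0.00357), but above background in none of them, so no size is given.

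The rest of the complement pathway did not move as one with C3 and Cfb. In iISC against crypt organoids, where 2.95% of all genes passed, 1 of 12 activation genes did, C2, the classical pathway counterpart of factor B. It was at -0.63, 0.57 and 0.22 in iISC organoids, against -1.41, -2.83 and -2.87 in crypt organoids, a difference of 2.42 ± 0.46 log2 units (SE, adjusted p = 0.0202), which did not pass without iISC organoid 2 or 3 or crypt organoid 2 or 3. In iFIPC against FI organoids none of 13 was higher, and C8g and C1rl fell by 1.58 and 1.51 (adjusted p = 0.00245 and 0.0343), with 1 activation gene lower without FI organoid 1 or 2 or iFIPC organoid 1 or 3. Of all genes tested 10% passed in that comparison and 4.99% were higher. Of 11 regulators 2 were higher there, and 1 without any single sample other than FI organoid 3. Among them was the chaperone clusterin, Clu, 4.26 ± 0.84 log2 units higher (SE, adjusted p = 0.00836).

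In iHep cells 3 of 16 complement activation genes were higher than in MEFs, C9, C2 and C4b, and 4 were lower, the 3 chains of C1q and Cfp, where 26.9% of all genes passed in either direction. C2 was 4.03 ± 0.86 log2 units higher (SE, adjusted p = 0.00213). C1qc was at least 122-fold and C1qa at least 55.4-fold lower in iHep cells (adjusted p = 2.16e-09 and 3.63e-07), in which neither was above background. Emr1, a macrophage marker, was above background in MEFs, at -0.63 and 0.65, and in no iHep sample, and its part in the C1q difference was not tested. iFIPC organoids had 8 of 14 activation genes lower than iHep cells, led by Masp1 at -9.06 ± 0.45 (SE, adjusted p = 5.87e-09), and 2 higher, Mbl2 and Fcna. Of all genes tested 17.3% were called lower there.

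Epithelial antimicrobial and chemokine genes, the companions of Lcn2 in gut inflammation, were the list with the most calls between iFIPC and FI organoids: 13 of 18 tested were higher and 1, Reg3a, lower, with a median difference of 3 log2 units. Over all genes tested 4.99% were called higher. The neutrophil attractant Cxcl5 was at least 217-fold, the protease inhibitor Slpi at least 305-fold and the mucin Muc1 at least 20.1-fold brighter in iFIPC than in FI organoids (adjusted p = 0.0167, 0.0112 and 0.00133). S100a8, a subunit of calprotectin, exceeded its FI level at least 19.7-fold (adjusted p = 0.0165). Cxcl5, Slpi, Muc1 and S100a8 were not above background in any FI organoid and were tested through iFIPC organoids alone. Nox1 and Cxcl2, also among those called higher, were not above background in FI organoids 2 and 3. They too were tested through iFIPC organoids alone. The direction of all these genes was thereby all but fixed, and the count of 13 and the median difference carry that limit. The count was 12 without FI organoid 1, between 9 and 12 without any other single sample, and 0 with slide as a term in the fit.

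Between iISC and crypt organoids 1 of 12 antimicrobial genes passed, the iron-binding Ltf, at -1.74, -0.99 and 0.82 in iISC organoids, against -4.02, -5.55 and -4.76 in crypt organoids. That is a difference of 4.14 ± 0.7 log2 units (SE, adjusted p = 0.014), which did not pass without crypt organoid 2 or 3. Of all genes tested 2.95% passed there. Cxcl5 and Slpi showed the division within the iISC group that Lcn2 showed: Cxcl5 was at 1.18 in iISC organoid 3 and not above background in the others, and Slpi was at -0.39 in iISC organoid 3, against -8.05 and -7.66 in iISC organoids 1 and 2. Reg3a, a bactericidal lectin, ran the other way among induced organoids, 6.72 ± 1.01 log2 units higher in iISC than in iFIPC organoids (SE, adjusted p = 0.00367).

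**Figure D4:**
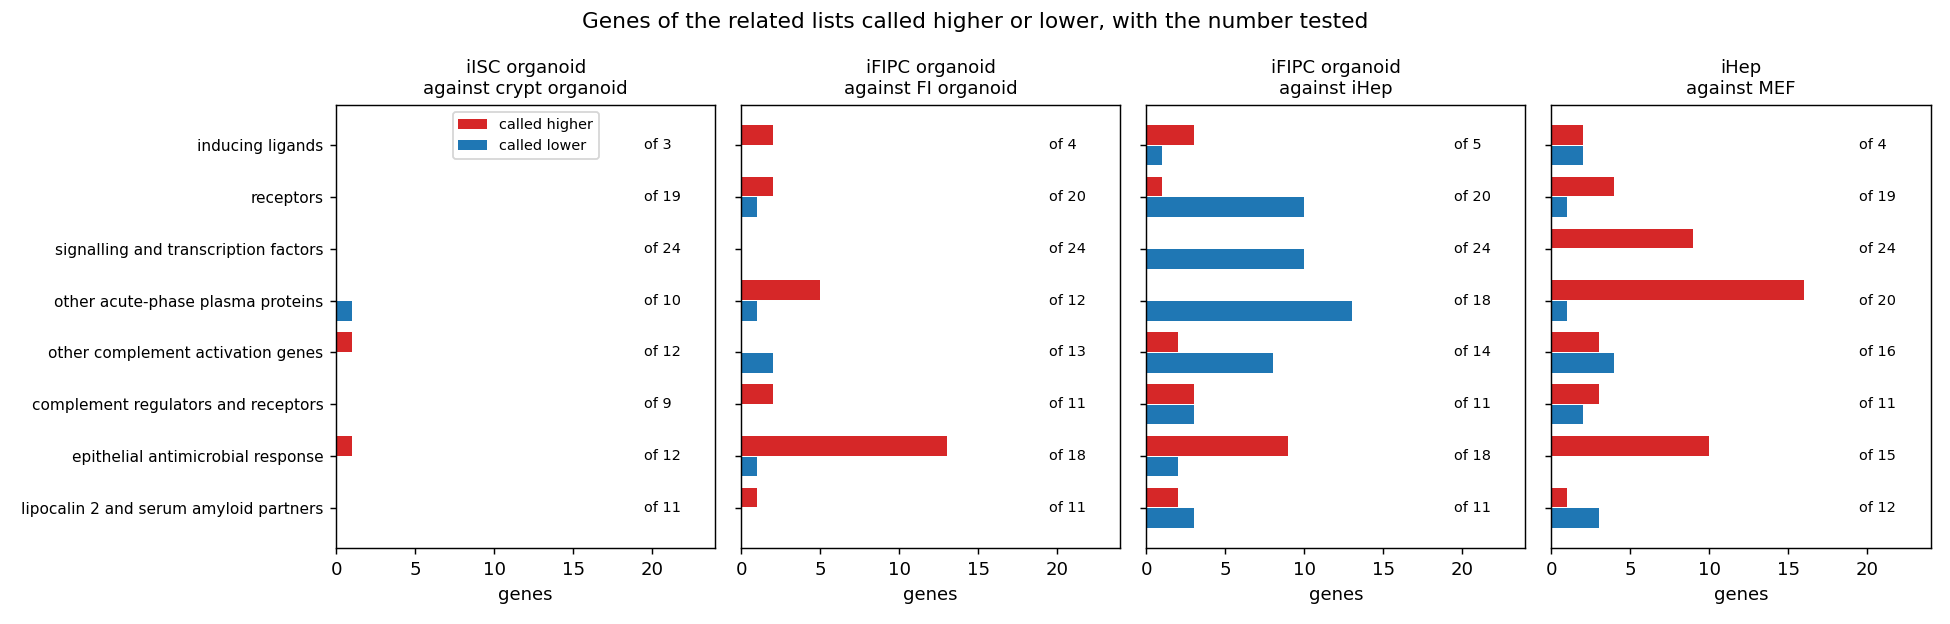
Number of genes called higher or lower in each related list and comparison, with the number tested at the right of each row. The antimicrobial list in iFIPC against FI organoids has 13 of 18 higher, and the plasma protein list in iHep cells against MEFs has 16 of 20.

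Genes that bind or take up the member proteins were also listed. Between iFIPC and FI organoids 1 of 11 lipocalin and serum amyloid partners was higher, Bdh2, an enzyme linked to a mammalian siderophore, by 3.05 ± 0.98 log2 units (SE, adjusted p = 0.0485), a call lost without FI organoid 1 or 2 or iFIPC organoid 1 or 3. Of all genes tested 4.99% were called higher there. None of 11 passed between iISC and crypt organoids, where 2.95% of all genes did.

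Genes whose centred levels lay closest to a member over the 17 samples are named as a description. Each gene entered by its probe of highest mean. For Saa2, beside the first Saa1 probe at 0.26, they were Tmigd1, Saa1 on its second probe and Ly6m, with root mean square differences of 1.36, 1.88 and 1.99 log2 units. Saa3 lay closest to Sult1a1, Lcn2 and C3, at 1.32, 1.38 and 1.47. C3 and Lcn2 lay 1.09 from each other, with Steap4 at 1.09 and Scnn1b at 1.1 from C3, and Oas2 at 1.05 and Fam107a at 1.1 from Lcn2. Among the genes closest to the second Saa1 probe were Slco2a1 and Sult1a1, at 1.32 and 1.33. For Cfb the nearest were Tspan8, Acox2 and 0610040J01Rik, at 0.63, 0.84 and 0.84, and no other member was among them. These distances share the samples, and the large gaps between cell types weigh most in them.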

How the data were processed

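Agilent one-colour (Cy3) arrays measured RNA from 18 samples. Per the file headers, the authors' Feature Extraction gave each spot a processed signal, an intensity on the linear scale with background subtracted, and the deposited files hold no scaling between arrays. The submitters' processing notes name version 9.5.1.1. Deposited flags mark outlier, saturated and above-background spots. The deposited series matrix, also intensity, equals the processed signal after quantile normalization (correlation 1, every median 59.32), so its scale is linear and uncentred; it served as an alternative.

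From the files, outlier-flagged spots were left out, spots of a probe were averaged, and log2 intensity minus the array's 75th percentile was taken; no array had more than 4 saturated probes. Probes were named by the deposited gene name; 24844 matched a RefSeq table by accession, 6045 by symbol and 1810 by synonym, and 8475 did not match. The probe with the highest mean stood for a gene in fits, and a gene was tested only if all arrays of one of the compared groups had it above background. The highest-mean rule made the second Saa1 probe stand for Saa1. Limma 3.58.1 in R 4.3.3 (lmFit, eBayes, two-sided, Benjamini-Hochberg over all genes) called genes at an adjusted p of 0.05 and 1 log2 unit. The organoid comparisons were fitted on the 12 organoid samples and the others on all 17, without a block. SEs are limma's moderated ones, and SDs are between samples.

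MEF arrays 2 and 3, whose log2 differences had an SD of 0.1187 (0.1098 from spot noise, 0.2383 to 0.6828 in other pairs), were averaged. On simulated data 72% to 87% of changes of 2 log2 units and 93% to 98% of 4 units were recovered, with 1.7% to 4.6% false calls. The members and lists were chosen with earlier results of these data known. Named list genes are up to 4 called genes with the largest change per list and comparison, and those needed for counts of 5 or fewer; other named genes were chosen after their values were seen. Lif, Cntf, Serpina1a and Ly6g were on lists but not found under these names. Alternatives were scaling, background, normalization, filter, probe rule, slide, replicate block, fitted groups, separate arrays and leaving out each replicate. Results for some single genes are not reported here.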

Additional observations from a re-analysis of the deposited data

How the results depend on the processing

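No member difference past the call rule changed sign under any setting run, and of 527 member values under other settings 487 moved by less than 1 SD of the replicates and 40 by more. Normexp background drew dim probes together: Lcn2 in iFIPC minus FI organoids became 1.19, Saa2 in iISC minus crypt organoids 5.01 and Saa3 2.34, and Saa2 in iHep cells minus MEFs 4.75. Some uncalled directions turned with slide as a fixed term: in iISC minus iFIPC organoids Saa2 (-1.08), both Saa1 probes (-1.14 and -1.07) and Cfb (-0.22), and in iISC minus crypt organoids Cfb (-0.34). The cause was not tested.

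Counts of all genes called were 486 (iISC against crypt), 1760 (iFIPC against FI), 1409 (crypt against FI) and 1208 (iISC against iFIPC). With normexp they were 323, 1155 and 912 for the first 3. With slide as a fixed term, which rests on few shared slides, they were 29, 132, 351 and 321. Only the groups compared gave 696 for iISC against iFIPC. With the replicate number as a block they were 405, 1574, 1266 and 992. Whether the numbers pair samples is not known, and the deviations of same-numbered samples correlated at -0.4 to 0.34. Under the block the members called were Saa2 in iISC against crypt and C3 and Lcn2 in iFIPC against FI organoids.

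Leaving out 1 sample gave 175 (without crypt organoid 2 or 3) to 955 (without iISC organoid 1) for iISC against crypt, 1049 (without FI organoid 2) to 1666 for iFIPC against FI, 786 (without crypt organoid 2) to 2004 for crypt against FI, and 846 to 1182 for iISC against iFIPC. It gave 4151 to 4670 for iHep against MEF, 8096 to 8343 for iISC against MEF, 7278 to 7547 for iFIPC against MEF and 5541 to 6231 for iFIPC against iHep. In iISC against crypt organoids no member was called without iISC organoid 2 or 3 or crypt organoid 2 or 3, and 3 were without iISC organoid 1. With normexp 4 members were called in iFIPC against MEF, without Lcn2 and Saa3.

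Scaling by the median shifted the median of all genes by 0.51 in iISC against MEF, 0.36 in iFIPC against MEF, 0.29 in iFIPC against iHep, 0.19 in crypt against FI and 0.15 in iISC against iFIPC. The share of calls that were higher became 64.9% (from 47.4%), 60.9% (46.5%), 62.7% (48.9%), 50.6% (34.6%) and 53.6% (41.8%). Normexp gave 59.8% (49.7%) for iFIPC against FI and 44.7% for crypt against FI. Under these scalings 0 of 216 member differences and 2 of 1356 called list values changed sign. Of 2080 list counts 263 moved by over 1.5 times. Signal over background limits Lcn2, Saa4 and the second C3 probe, which give bounds or no difference in organoids, except Lcn2 in iISC minus iFIPC organoids. It also limits Saa2 and the first Saa1 probe, each above background in 1 of 3 crypt organoids. With normexp, iISC minus crypt on that Saa1 probe was 4.48, against 8.13 without it.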
